A study of Mus musculus with 8 samples.

Results

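On mouse chromosomes 11 and 12, 37 genes were read from almost a single parental allele in wild-type (WT) female mouse embryonic fibroblasts (MEFs). The study describes the X chromosomes of these cells as coming from a 129 and a CAST/EiJ strain, and does not describe their autosomes. The labels name the 129 strain as 129S1/SvImJ and the study's text as 129Sv4/Jae. Reads were split by the differences between 129S1/SvImJ and CAST/EiJ. The 37 genes were chosen by a rule. A gene had to have 50 or more allelic reads in WT and in XiΔXist MEFs, and the 129 share of its allelic reads in WT had to be 10% or less or 90% or more. An allelic read is an RNA-seq read that covers a base that differs between the strains, and the 129 share is the percentage of such reads assigned to the 129 allele. Pseudogenes and 8 imprinted genes of these chromosomes (Grb10, Zrsr1, Commd1, Dlk1, Meg3, Rian, Mirg and Rtl1) were left out. Of 909 genes with enough reads, 594 on chromosome 11 and 315 on chromosome 12, the rule took 37, which is 4.07%, and these are called members here. Members numbered 30 on chromosome 11 and 7 on chromosome 12, with 29 read from 129 and 8 read from CAST. Protein-coding genes made up 31 of them. Because the WT share selected them, their shares in WT are a description and carry no test.

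Many autosomal genes are transcribed from both parental copies, and a gene can be read from a single copy in several ways. Imprinted genes use the copy of a given parent in every cell. A sequence difference between strains can silence or weaken a copy in every cell that carries it. In random monoallelic expression a cell chooses a copy and its descendants keep that choice, so that a line grown from a single cell shows a single allele and another line may show the other. In a line that has lost or never had the second copy of a stretch of chromosome, all genes of the stretch also read as one allele. The cross was not made in both directions here, and DNA was not measured in the data used, so these 4 cannot be told apart for a gene that holds the same allele in every pool.

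The 8 samples were 4 groups of 2: WT MEFs, XiΔXist MEFs, which lack Xist on the inactive X, XiΔXist MEFs given a scrambled hairpin (XiΔXist shSCR) and XiΔXist MEFs given hairpins against the transcription factor YY1 (XiΔXist shYY1). All were female and carried a 129 and a CAST/EiJ X chromosome, of which the 129 copy is the inactive X. The study describes the WT and XiΔXist cells as clonal lines, and the shYY1 replicates used different hairpins. Allele shares of some genes differed between the XiΔXist pool and the hairpin pools made from these cells, as given below. Whether these pools come from the same founder cell was not tested. Both replicates of a group were merged by the authors into a column per allele, so that no spread between samples can be given and each value below belongs to a pool of 2 libraries. Allelic reads numbered 24310035 for the WT pool, 28329701 for XiΔXist, 2393545 for XiΔXist shSCR and 2504345 for XiΔXist shYY1, and the hairpin pools were sequenced with longer reads. The median member had 490, 611, 57 and 75 reads in these pools. Intervals in brackets are Wilson 95% intervals. For a share of reads they cover counting error only, and for a percentage of genes they treat the genes as independent. Of the genes targeted in the design, Xist stood at 1827 CPM in WT and 0.954 CPM in XiΔXist (CPM, counts scaled to the same total of allelic reads on the autosomes and X), and Yy1 stood at 157 CPM in shSCR and 60.8 in shYY1. Of 10 fibroblast markers, 9 had at least 10 reads in every pool and Twist1 had none in any, with a summed level of 4885 to 15271 CPM. The summed level of epithelial, endothelial and blood markers was 3.46 CPM or less in every pool, and that of 3 neural markers was 39.0 to 144 CPM.

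Promoter sequences of 4 members are shown because their genes stand for the 4 patterns described below. Ccng1 lies in a long interval read from 129, Hif1a is read from CAST among neighbours read from both alleles, Ccdc85a is read from CAST at levels that differ between the pools, and the 129 share of Irgm1 differs between the pools. Each is the stretch of 250 bases before the annotated start in RefSeq (GRCm38.p6), 5′ to 3′ on the strand of the gene, with CG dinucleotides in capitals. The assembly is not of either parent strain, so the sequences do not show where 129 and CAST differ. The Hif1a window belongs to a start inside the longer gene of the annotation used for the counts.
Ccng1, chr11:40755287-40755536, minus strand: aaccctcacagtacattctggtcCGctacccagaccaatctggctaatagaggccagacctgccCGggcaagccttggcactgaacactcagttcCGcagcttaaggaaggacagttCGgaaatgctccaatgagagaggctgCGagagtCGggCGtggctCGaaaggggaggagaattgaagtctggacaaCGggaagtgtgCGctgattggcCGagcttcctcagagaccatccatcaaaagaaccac
Hif1a, chr12:73907617-73907866, plus strand: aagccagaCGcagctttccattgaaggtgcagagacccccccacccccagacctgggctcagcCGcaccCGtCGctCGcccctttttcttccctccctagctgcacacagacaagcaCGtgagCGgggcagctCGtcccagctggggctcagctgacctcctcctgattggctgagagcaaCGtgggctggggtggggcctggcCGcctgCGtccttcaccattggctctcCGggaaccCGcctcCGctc
Ccdc85a, chr11:28584325-28584574, minus strand: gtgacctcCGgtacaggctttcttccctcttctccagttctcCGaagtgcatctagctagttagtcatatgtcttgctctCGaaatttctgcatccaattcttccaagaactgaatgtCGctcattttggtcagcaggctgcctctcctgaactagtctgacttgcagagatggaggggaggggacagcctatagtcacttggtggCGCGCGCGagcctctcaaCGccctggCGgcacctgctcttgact
Irgm1, chr11:48871421-48871670, minus strand: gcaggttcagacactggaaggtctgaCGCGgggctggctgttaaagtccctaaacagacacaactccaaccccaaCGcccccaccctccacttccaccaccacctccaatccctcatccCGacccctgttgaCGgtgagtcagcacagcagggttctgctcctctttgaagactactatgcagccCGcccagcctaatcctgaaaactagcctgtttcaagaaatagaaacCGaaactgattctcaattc

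These windows hold 11 CG dinucleotides in Ccng1, 14 in Hif1a, 10 in Ccdc85a and 7 in Irgm1. For 24 members RefSeq gave 31 such windows, with a median of 13 CG dinucleotides beside 6 over all 32851 windows. The 32851 windows were not limited to genes with enough reads in these cells, as the members were. They thus do not show whether members differ from other expressed genes. TATAAA, searched on both strands, was in 3 of the 31 windows (9.68%), those of Apob, Thg1l and Med7, beside 12.4% of all windows. AAGATGGC, the core of the YY1 motif, was in 0 of the 31 and in 1.56% of all windows on either strand. These are matches of letters in the reference and draw on no binding data.

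The largest group of members lay in a single stretch of chromosome 11, and all of its members were read from 129 in every pool with enough reads. The stretch was drawn after the values were seen, from the start of Pank3 to the end of Havcr2, chr11:35769484-46481255 (GRCm38), a length of 10.7 Mb. It held 21 of the genes with enough reads and 20 of them were members, which is 66.7% of the chromosome 11 members and 54.1% of all members. On the rest of chromosome 11, 10 of 573 genes (1.75%) were members, and the median 129 share was 57.5% in WT, 50.9% in XiΔXist, and 53.1% and 52.9% in shSCR and shYY1. A further 5 genes of the stretch had at least 10 reads in WT but not enough for the rule, and all 5 were past the 90% limit, as was the single pseudogene with that many reads. The tested genes of the stretch were not evenly spaced, with 4.70 Mb between Wwc1 and Mat2b and 2.66 Mb between Ccng1 and Pttg1.

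**Figure D1:**
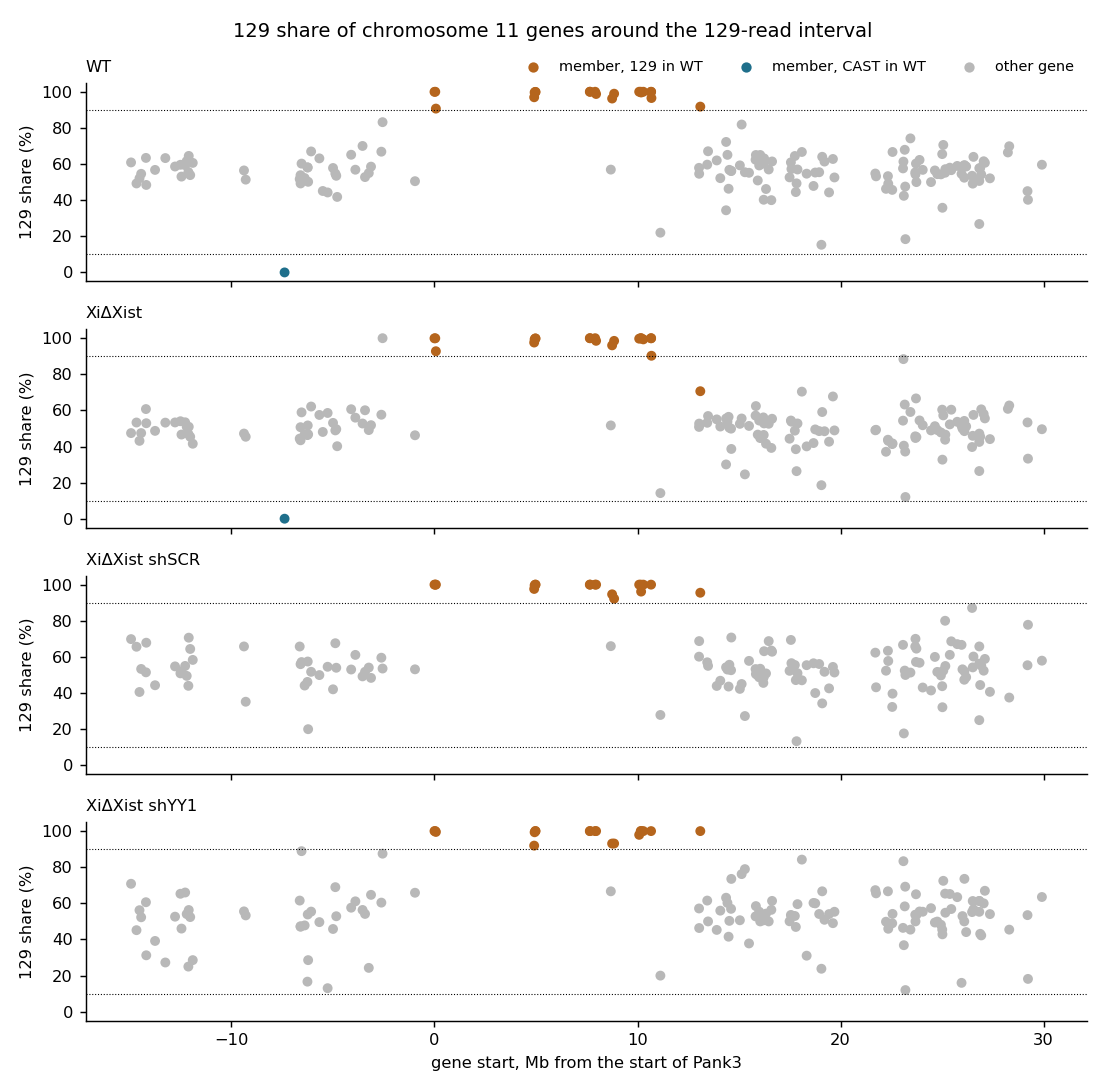
The 129 share (y axis, %) of chromosome 11 genes against the distance of their start from the start of Pank3 (x axis, Mb) in the 4 pools, for genes with at least 10 allelic reads in the pool. Orange points are members read from 129 in WT, blue points members read from CAST and grey points other genes, and dotted lines mark 10% and 90%. Between 0 and 10.7 Mb the orange points lie above 90% in every pool, with a single grey gene, Ublcp1, below them.

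Ccng1, cyclin G1, a target of p53, was the deepest of them. It had 37631 reads from 129 and 54 from CAST in WT, 48906 and 91 in XiΔXist, 452 and 0 in shSCR, and 689 and 0 in shYY1. Pank3, a pantothenate kinase of coenzyme A synthesis, had 33404 and 18 reads in WT, 48280 and 32 in XiΔXist, and 567 and 561 reads in shSCR and shYY1 with none from CAST. For both genes CAST reads were a trace in the deep pools and absent in the shallow ones, where the 567 reads of Pank3 in shSCR, none from CAST, limit the CAST share to 0.529%. Hmmr, a receptor for hyaluronan that also binds the spindle, had 36 CAST reads of 9816 in WT and 75 of 12288 in XiΔXist. Nudcd2, which overlaps no other listed gene and starts beside Hmmr on the other strand, had 7 CAST reads of 9383 in WT and 16 of 12394 in XiΔXist. Med7, a Mediator subunit, had 2 CAST reads of 2878 in WT and 2 of 4342 in XiΔXist. Summed over the 20 members, CAST made up 0.229% of 104548 reads in WT, 0.291% of 141130 in XiΔXist, 1.09% of 3655 in shSCR and 1.55% of 3993 in shYY1. In WT and XiΔXist the sum is set by a few deep genes. Of the 40 CAST reads in shSCR, Rnf145 had 19 and Ebf1 18. Of the 62 in shYY1, they had 25 and 21. The median member of the stretch had a CAST share of 0.0720% in WT and 0.157% in XiΔXist. Among the 3333 genes of the other autosomes past the 90% limit in WT, the median was 0% in both pools, and the summed CAST share was 0.579% in WT and 1.38% in XiΔXist.

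CAST reads within the stretch were not spread evenly over its genes. No CAST read was found for 8 of 20 members in WT, 6 of 20 in XiΔXist, 13 of the 18 with at least 10 reads in shSCR and 12 of 18 in shYY1. Slu7, a splicing factor, had none in 1020 reads in WT and none in 1018 in XiΔXist, and Lsm11, a histone mRNA processing factor, none in 1088 and 1350. Wwc1, a regulator of Hippo signalling, stood at the other end, with a 129 share of 90.7% [87.2, 93.3] of 354 reads in WT and 92.8% of 305 in XiΔXist, but 100% of 225 in shSCR and 99.5% of 209 in shYY1. Ebf1, a transcription factor best known from B cells, had 98.9% in WT, 98.5% in XiΔXist, and 92.2% and 93.1% in shSCR and shYY1. Havcr2, which encodes the immune receptor TIM-3, had 96.5% of 144 reads in WT and 90.3% of 494 in XiΔXist, close to the limit. Slu7, Lsm11 and Havcr2 were chosen after their values were seen.

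The other members of the stretch differed mainly in how many CAST reads they had, and all were read from 129 wherever they had enough reads. Rars, the cytosolic arginyl-tRNA synthetase, had no CAST read in 2417 in WT and 1 of 3111 in XiΔXist, and Pwwp2a, a chromatin reader, had none in 477 and 611. Clint1, a clathrin adaptor, and Adam19, a membrane metalloprotease, had no CAST read in WT and 2 and 3 in XiΔXist. Thg1l, which adds a guanine to histidine tRNA, had 2 CAST reads of 490 in WT and none of 477 in XiΔXist, and Ttc1 had 3 in each pool. The CAST share was higher in Mat2b, the regulatory subunit of methionine adenosyltransferase, with 36 CAST reads in WT and 36 in XiΔXist, and in Rnf145, a ubiquitin ligase, with 23 and 30. Rnf145 had a 129 share of 94.6% and 93.1% in the hairpin pools, and Mat2b 97.6% and 92.0%. The long noncoding RNA 2310031A07Rik, which shares 609 exon bases with Med7, had 61 and 102 reads in WT and XiΔXist, none from CAST.

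One gene inside the stretch, and the nearest genes with enough reads on either side of it, were read from both alleles. Ublcp1, a phosphatase of the proteasome that lies between Ttc1 and Rnf145, had a 129 share of 56.9% in WT, 51.7% in XiΔXist, and 66.0% and 66.7% in shSCR and shYY1. Spdl1, a spindle protein whose gene ends 936 kb before Pank3, had 50.5%, 46.3%, 53.1% and 65.9%. Sgcd, a sarcoglycan whose gene starts 415 kb after Havcr2, had 290 of 1318 reads from 129 in WT, 111 of 778 in XiΔXist, 17 of 61 in shSCR and 8 of 40 in shYY1. Slit3 lies closer, 61.0 kb before Pank3, and was too shallow for the rule in WT. Its 129 share was past the limit in both deep pools, with 95.2% of 42 reads in WT and 93.3% of 60 in XiΔXist, and it had 75.9% of 58 in shSCR and 88.2% of 110 in shYY1. All 4 genes were chosen after their values were seen. The values of Ublcp1 show CAST reads assigned within the stretch in all 4 pools, while those of the 20 members show 1.55% CAST reads or fewer in sum. Whether the cells carry the CAST copy of this stretch was not tested.

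The deepest member read from CAST was Hif1a, which encodes the oxygen-regulated subunit of hypoxia-inducible factor. It is on chr12:73901375-73947530 and had 9 reads from 129 and 7150 from CAST in WT, 16 and 10728 in XiΔXist, 0 and 288 in shSCR, and 0 and 340 in shYY1. The 129 share was thus 0.126% [0.0662, 0.239] in WT and 0.149% in XiΔXist, and the 340 reads in shYY1, none from 129, limit it to 0.882%. Gm15283, an antisense transcript over the whole of Hif1a, had 1 and 316 reads in WT, 0 and 324 in XiΔXist, 0 and 11 in shSCR, and 0 and 19 in shYY1. The annotated exons of the pair share 330 bases, 5.60% of those of Hif1a and 14.02% of those of Gm15283, and the use of strand in counting is not given in the sources used here, so reads in these bases cannot be told apart.

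Genes beside Hif1a gave reads of both strains in the WT and XiΔXist pools. Of the 14 other genes with enough reads that start within 2 Mb of it, the 129 share lay between 32.1% and 68.7% in WT with a median of 50.4%, and between 15.2% and 61.3% in XiΔXist with a median of 51.6%. Snapc1, a subunit of the small nuclear RNA activating complex, starts 16.95 kb after Hif1a and had 54.7% of 1100 reads in WT and 57.1% of 1624 in XiΔXist. In the hairpin pools the neighbours had lower 129 shares. Snapc1 had 0 of 16 reads from 129 in shSCR and 2 of 37 in shYY1, and the medians of the neighbours with at least 10 reads were 25.9% over 13 genes and 28.1% over 12. The whole of chromosome 12 had such values, with a median over its genes between the limits of 47.7% in WT, 50.7% in XiΔXist, and 27.3% and 27.6% in shSCR and shYY1. Hif1a thus stood further from its neighbours in WT and XiΔXist than in the hairpin pools. Snapc1 was chosen after its values were seen.

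**Figure D2:**
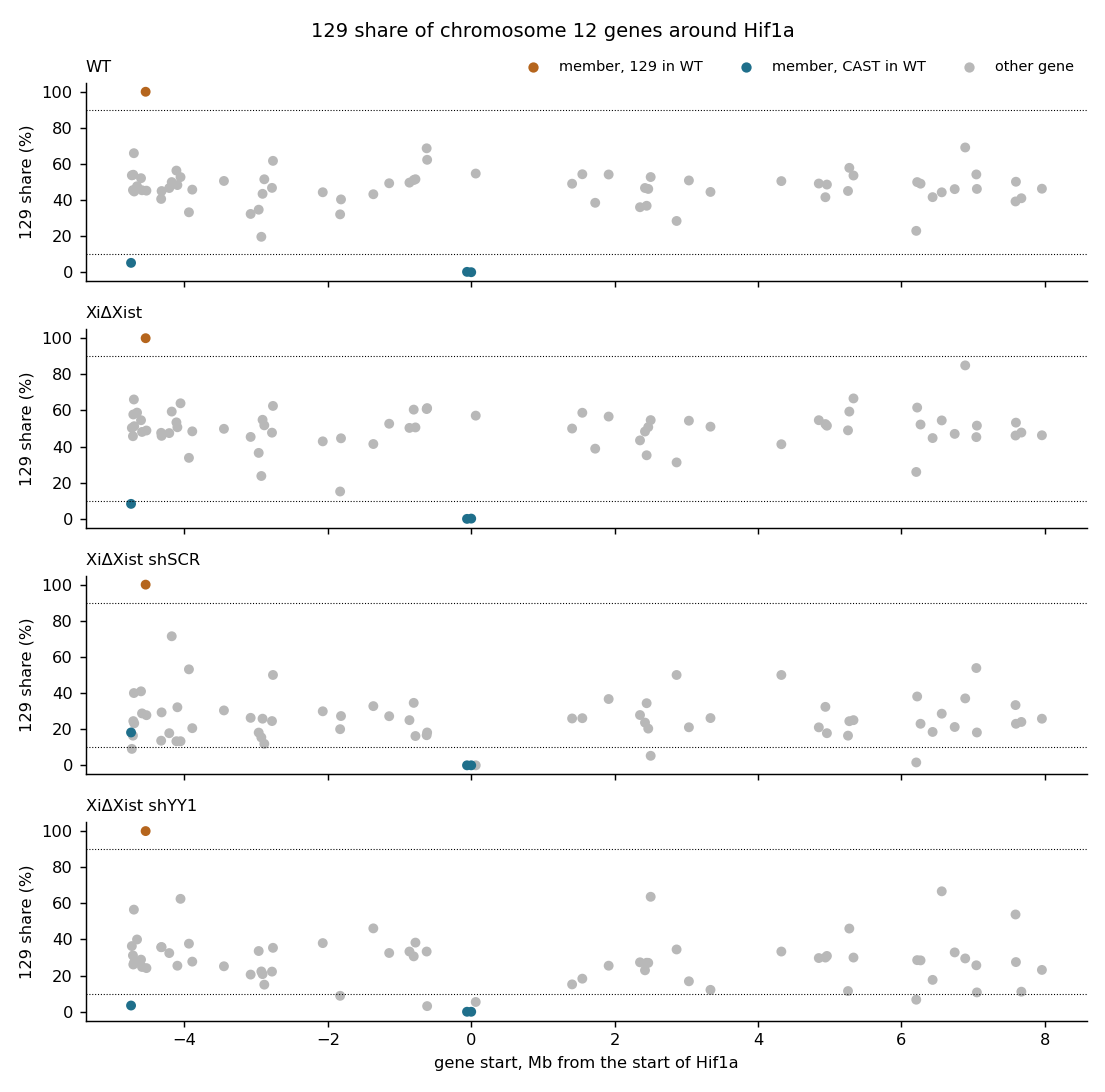
The 129 share (y axis, %) of chromosome 12 genes against the distance of their start from the start of Hif1a (x axis, Mb) in the 4 pools, for genes with at least 10 allelic reads in the pool, with colours and dotted lines as in the plot for chromosome 11. The 2 blue points at 0 Mb are Hif1a and Gm15283, which stay at or near 0% in every pool, while the grey genes centre on 50.4% in WT and on 25.9% in shSCR within 2 Mb.

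Ccdc85a, which encodes a coiled-coil protein, was read from CAST at 2 very different levels. It had 0 reads from 129 and 57 from CAST in WT, which limits the 129 share to 5.26%, and 1 and 1071 in XiΔXist, a share of 0.0933%. No allelic read was found in either hairpin pool, where 3 reads would be 1.98 CPM. Its level was 2.94 CPM in WT and 48.7 CPM in XiΔXist, 16.6-fold higher, and the reads of both pools came from CAST but for a single one. All 8 tested genes within 1 Mb were read from both alleles in WT, with a median 129 share of 53.0%. Efemp1, 269 kb away, is not among these 8, since it had 13 reads in XiΔXist. In WT it had 5503 reads from 129 and 9 from CAST. Slc6a4, the serotonin transporter, had 13 and 125 reads in WT, 5 and 135 in XiΔXist, and 4 reads in each hairpin pool, all from CAST. Its WT share of 9.42% [5.59, 15.4] reaches past the limit, and all 17 neighbours within 1 Mb were read from both alleles.

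Several members belong to families of genes whose copies resemble each other, or are short. For 4 of 37 members (10.8%), and for 31 of the other 872 genes (3.56%), another gene matched at least 50% of the longest transcript at 90% identity or more. These 4 were Gm23444, a small nuclear RNA with 14 such copies, Actg1, cytoplasmic gamma-actin, with 9, Rn7s2, an RNA of the signal recognition particle, with 7, and Gm26623, a long noncoding RNA, with 1. Reads of such genes may be assigned to the wrong copy, so their shares are uncertain. Gm23444 had 8808 and 64 reads from 129 and CAST in WT, 9730 and 118 in XiΔXist, 942 and 21 in shSCR, and 1166 and 20 in shYY1, a 129 share between 97.8% and 99.3%. Actg1 had 2 and 297 reads in WT, 4 and 221 in XiΔXist, 109 and 885 in shSCR, and 125 and 886 in shYY1. Its 129 share was 0.669% and 1.78% in the first pair of pools and 10.97% and 12.4% in the second. Gm26623 was read from CAST in every pool, with 11 and 355 reads in WT, 7 and 298 in XiΔXist, 0 and 26 in shSCR, and 2 and 54 in shYY1. Rn7s2 had 304 reads in WT, 404 in XiΔXist, and 239 and 120 in shSCR and shYY1, none from CAST. None of the 20 members of the long stretch had such a copy. Ifi27l2b, an interferon-inducible gene of chromosome 12 without such a copy, had 185 reads in WT and 346 in XiΔXist, all from 129, and 4 reads or fewer in the hairpin pools.

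The ribosomal protein genes among the members were read mostly from CAST in WT. Rps29 had 81 reads from 129 and 1449 from CAST in WT, 113 and 1248 in XiΔXist, 8 and 36 in shSCR, and 2 and 56 in shYY1. The 129 share was 5.29%, 8.30%, 18.2% and 3.45%. Rpl38 had 4 and 68 reads in WT, 2 and 54 in XiΔXist, 15 and 22 in shSCR, and 1 and 18 in shYY1. Its share was below 6% in 3 pools and 40.5% [26.3, 56.5] in shSCR. Mrpl38, a subunit of the mitochondrial ribosome, was on the other side, at 90.7% in WT, 87.4% in XiΔXist, and 60.9% and 37.3% in shSCR and shYY1. All neighbours of Rpl38 and of Mrpl38 within 1 Mb, 6 and 21 genes, were read from both alleles in WT.

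In XiΔXist, 32 of the 37 members (86.5% [72.0, 94.1]) were at the same extreme as in WT, 5 lay between the limits and none was at the opposite extreme. The interval treats the members as independent, though 20 of them lie in the long stretch. Without that stretch, a choice made after the data were examined, 12 of 17 (70.6%) were at the same extreme. All 8 members read from CAST kept their class and 24 of 29 read from 129. Over all autosomes 98.1% of the genes chosen by the same WT limits kept their class, but 3374 of those 3411 genes lay on the other autosomes, where up to 88.3% of the tested genes of a chromosome were past the limits.

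**Figure D3:**
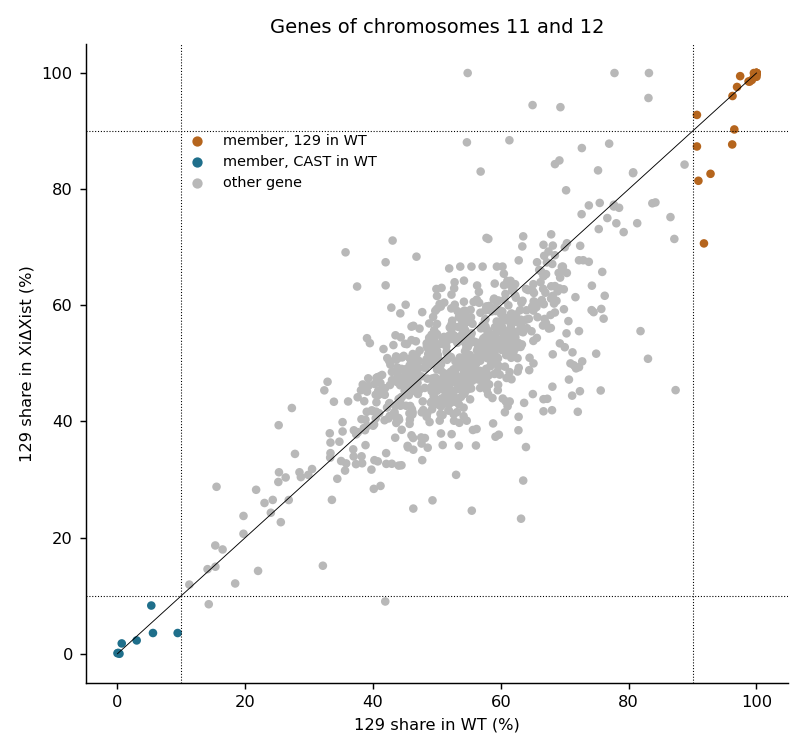
The 129 share in XiΔXist (y axis, %) against that in WT (x axis, %) for the 909 genes of chromosomes 11 and 12 with at least 50 reads in both pools, with members in orange and blue and other genes in grey. Dotted lines mark 10% and 90% and the diagonal marks equal shares. The 5 orange points under the upper dotted line are the members that lay between the limits in XiΔXist, and the upper left and lower right corners are empty.

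The 5 that lay between the limits were all read from 129 in WT and all on chromosome 11. Over the 564 genes of chromosome 11 between the limits in WT, the median 129 share was 57.4% in WT and 50.9% in XiΔXist. Whether the changes of these 5 are separate from that lower share was not tested. Irgm1, an interferon-inducible GTPase with a part in autophagy and defence against bacteria, had 625 reads from 129 and 56 from CAST in WT, 525 and 218 in XiΔXist, 64 and 3 in shSCR, and 75 and 0 in shYY1. Its 129 share was 91.8% [89.5, 93.6] in WT and 70.7% in XiΔXist, the largest move of a member between these pools, and 95.5% and 100% in the hairpin pools. Irgm1 was thus lower in XiΔXist than in the pools made from XiΔXist cells. Skap1, an adaptor of T cell adhesion, and 2010300F17Rik, a long noncoding RNA on the other strand within it, moved side by side. Skap1 had 92.8% of 139 reads in WT, 82.6% of 121 in XiΔXist, and no CAST read in 25 and 13 reads of the hairpin pools. 2010300F17Rik had 96.2% of 684, 87.7% of 691, 98.2% of 57 and 95.5% of 44 reads. Their annotated exons share 186 bases, 2.49% of those of Skap1 and 6.57% of those of 2010300F17Rik. Tefm, a mitochondrial transcription elongation factor, had 70 and 7 reads in WT, 79 and 18 in XiΔXist, 8 and 8 in shSCR, and 11 and 11 in shYY1. Mrpl38, described above, was the 5th. The WT interval of 7 members crosses the limit, and 4 of those 7 are among these 5, all but 2010300F17Rik.

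In WT the genes nearest the limits lay within a few points of them on both sides. Just inside the 90% limit stood Wwc1 and Mrpl38, both at 90.7% in WT, and just outside it Ap1b1, an adaptor of clathrin coats, at 88.7% and Nt5c3b, a nucleotidase, at 87.3%. In XiΔXist, Ap1b1 had 84.2% and Nt5c3b 45.4%. Just inside the 10% limit stood Slc6a4 at 9.42% and Rpl38 at 5.56%, and just outside it Gon7 at 11.2% and Acp1, a phosphatase, at 14.1%, with 11.9% and 14.6% in XiΔXist.

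**Figure D4:**
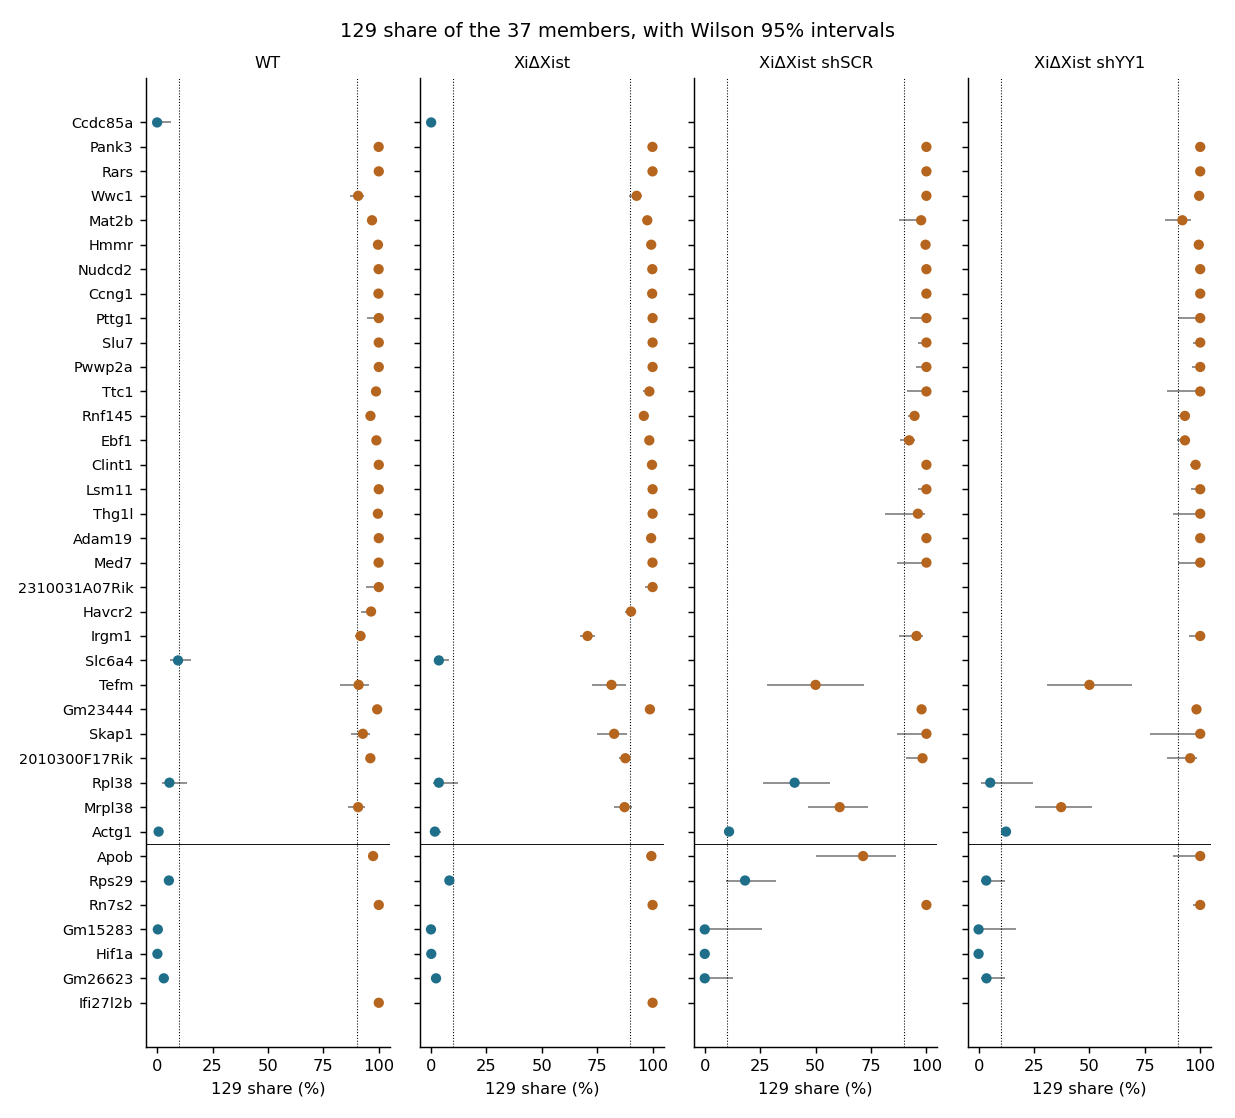
The 129 share (x axis, %) of each of the 37 members in the 4 pools, ordered by position, with chromosome 12 below the black line. Points are orange for genes read from 129 in WT and blue for those read from CAST, bars are Wilson 95% intervals, dotted lines mark 10% and 90%, and genes with under 10 reads in a pool have no point. The genes from Pank3 to Havcr2 form an unbroken column at the right in WT and XiΔXist, while Tefm, Rpl38, Mrpl38 and Apob lie far from their WT position in at least one hairpin pool.

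Of the members, 32 had at least 10 reads in shSCR and 32 in shYY1. The 5 with fewer were Ccdc85a, 2310031A07Rik, Havcr2, Slc6a4 and Ifi27l2b. At the WT extreme were 26 of 32 (81.2%) in shSCR and 29 of 32 (90.6%) in shYY1, beside 95.7% and 96.5% of the autosomal genes chosen by the same WT limits. As in the comparison for XiΔXist, most of those genes lay on the other autosomes. The 6 members not at the WT extreme in shSCR were Actg1, Apob, Mrpl38, Rpl38, Rps29 and Tefm, and 3 of these, Actg1, Mrpl38 and Tefm, were not in shYY1. No member was at the opposite extreme in any pool. Over all 4 pools, 28 of 37 (75.7% [59.9, 86.6]) kept their class wherever they had enough reads, with an interval that again treats the members as independent. Of the 32 with at least 10 reads in every pool, 23 (71.9%) kept it in all 4. Without the 20 genes of the long stretch, 8 of 17 (47.1%) kept their class wherever they had enough reads. This alternative was added after the data were examined. Among these 8, Ccdc85a, Slc6a4 and Ifi27l2b had under 10 reads in the hairpin pools, so their class was compared in XiΔXist alone.

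The change of the 129 share between XiΔXist and shSCR, which the choice of members did not use, was tested with a two-sided Fisher's exact test on the reads of the pools, adjusted by Benjamini-Hochberg over all 9212 autosomal genes with at least 10 reads in both. It compares 2 pools of libraries, not the conditions. It called 8 of 32 members, 4 with a higher and 4 with a lower 129 share in shSCR, beside 21.7% of all autosomal genes, which is near the members' count. On chromosome 11 it called 7 of 26 members beside 18.7% of the genes, and on chromosome 12 it called 1 of 6 beside 65.7%. The rates on chromosome 12 cannot be compared, since its median 129 share was 50.7% in XiΔXist and 27.3% in shSCR. Its 4 members read from CAST were at 8.30% or less in XiΔXist, with little room for a lower share. Within the long stretch 2 of 18 were called, and outside it 6 of 14. Ebf1 fell from 98.5% to 92.2% (exact test, adjusted p = 1.77e-06), and Wwc1 rose from 92.8% to 100% (exact test, adjusted p = 6.12e-05). Irgm1 rose by 24.9 points (exact test, adjusted p = 1.33e-05) and Actg1 by 9.19 points (exact test, adjusted p = 1.67e-05). Rpl38 rose by 36.97 points, from 2 of 56 to 15 of 37 reads (exact test, adjusted p = 9.10e-05). Apob, the protein of low-density lipoprotein particles, had 185 and 1 reads in XiΔXist and 15 and 6 in shSCR, and its 129 share fell by 28.0 points (exact test, adjusted p = 3.90e-05). The other 2 called, Mrpl38 and Tefm, had lower shares in shSCR. The pools compared also differ in read length, depth and transduction, and the part of these in the differences was not tested.

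Between shSCR and shYY1 the same test called 0 of 32 members, beside 1.2% of 9720 autosomal genes, 1.71% of those on chromosome 11 and 1.69% of those on chromosome 12. At an unadjusted p under 0.05 there were 5 of 32 members (15.6%), Apob, Rpl38, Rps29, Mrpl38 and Clint1, beside 10.5% of all autosomal genes. The Wilson intervals of 2 of the 32 members did not overlap, beside 392 of 9720 autosomal genes (4.03%). Apob had 15 and 6 reads in shSCR and 27 and 0 in shYY1 (exact test, p = 0.00442, adjusted p = 0.149), and Rpl38 went from 15 of 37 to 1 of 19 reads (exact test, p = 0.00546, adjusted p = 0.159). At 57 to 75 reads for the median member, small differences were not detectable.

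Total levels of the members, both alleles together, differed little between WT and XiΔXist. At least 2-fold differences were seen in 3 of 37 (8.11%), beside 7.51% of 8055 autosomal genes, so that the count is near the background. All 3 were higher in XiΔXist: Ccdc85a by 16.6-fold, Pttg1, securin, by 3.54-fold from 3.61 to 12.8 CPM, and Havcr2 by 3.02-fold from 7.43 to 22.4 CPM. Every read of Pttg1 was from 129 in all pools. The median log2 ratio of XiΔXist to WT was 0.17 over the 20 members of the long stretch and -0.15 over the other 17, beside -0.07 over all autosomal genes. Allelic CPM counts only reads over strain differences. In this paragraph it is compared for the same gene between pools of like read length, not between genes. The marker sums given above add different genes over all pools and are a description only. Hif1a had 369 CPM from CAST in WT and 488 in XiΔXist, and Apob had 16.1 CPM in WT and 8.45 in XiΔXist.

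**Figure D5:**
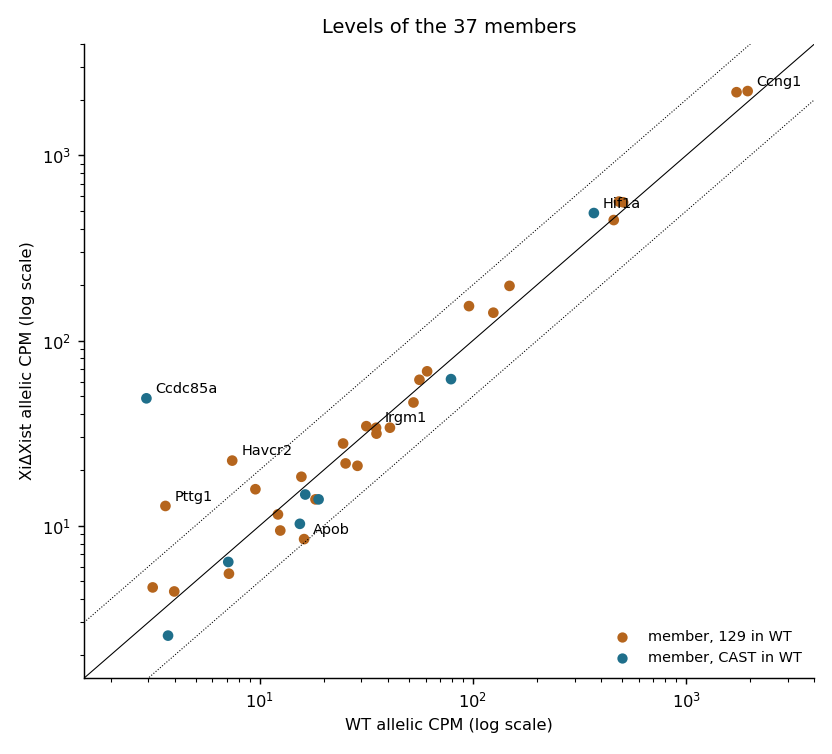
Allelic CPM of the 37 members in XiΔXist (y axis, log scale) against WT (x axis, log scale), both alleles summed, with genes read from 129 in WT in orange and from CAST in blue. The solid line marks equal levels and the dotted lines a 2-fold difference. Ccdc85a, Havcr2 and Pttg1 lie above the upper dotted line.

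Of 13 gene lists of chromosomes 11 and 12 known for families, immunity, matrix or transcription, 6 had a gene with enough reads, and 2 of the 36 tested genes in them were members. Irgm1 was the single tested gene of the interferon-inducible GTPases, and Slc6a4 was 1 of 12 solute carriers, whose median 129 share in WT was 59.0%. None of 15 zinc finger genes was a member, with shares from 23.0% to 81.9% in WT. The 5 tested matrix genes, Sparc, Col1a1, Timp2, Ltbp2 and Fbln5, lay between 41.2% and 62.8%, and the chemokines Ccl2 and Ccl7 between 40.2% and 52.3%. Efemp1, also in the matrix list, had a 129 share of 99.8% of 5512 reads in WT. It was left out because it had 13 reads in XiΔXist. Hoxb4 was the single tested homeobox B gene and had 77.8% in WT. The Schlafen, clade A serpin, keratin, inflammasome, CD300, immunoglobulin and olfactory receptor lists had no gene with enough reads.

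The rule starts from WT, and 8 of the 872 genes between the limits in WT (0.917%) were past a limit in XiΔXist. Of the 40 genes past a limit in XiΔXist, 32 were at the same extreme in WT and 8 were not, and no gene was at opposite extremes in WT and XiΔXist. Of the 8, named here because XiΔXist chose them, 6 had a higher 129 share in XiΔXist than in WT and 2 a lower one. Hoxb4, a homeobox transcription factor, had 112 reads from 129 and 32 from CAST in WT, 229 and 0 in XiΔXist, 14 and 12 in shSCR, and 18 and 18 in shYY1. Fam110c had 388 and 320 reads in WT, 92 and 0 in XiΔXist, 9 and 14 in shSCR, and 9 and 15 in shYY1, and its level was 8.74-fold higher in WT. 3110039M20Rik, a long noncoding RNA of chromosome 12, had 65.0% in WT, 94.5% in XiΔXist, and 33.3% and 22.2% in shSCR and shYY1. Ranbp17 had 83.2% of 101 reads in WT, 100% of 59 in XiΔXist, 53.6% of 28 in shSCR and 87.5% of 24 in shYY1. Aebp1, Cyb5d1, Tbc1d16 and Gm22973 were the others. Hoxb4 and Fam110c were read from a single allele in XiΔXist and from both in WT and in the hairpin pools made from XiΔXist cells.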

How the data were processed

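RNA-seq of total RNA was made by the authors in 8 MEF samples (KAPA RNA HyperPrep). What the authors deposited are raw counts of reads per Ensembl gene and allele. They pooled replicates, so that no replicate spread is left, aligned with TopHat to a genome with strain differences masked (mm10), removed low-quality alignments, split reads with SNPsplit and counted exons with featureCounts 1.6.3. The annotation release and strand setting are not given in the sources used here.

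Positions and types came from GENCODE M21 (45229 of 46078 gene IDs matched). CPM used autosomal and X-linked allelic reads, since between 20.3% and 39.6% of a pool's reads lay elsewhere. Shares carry Wilson 95% intervals, and a share of 0 the limit of 3 counts. Fisher's exact tests were two-sided, adjusted over all autosomal genes with 10 or more reads in both pools, at 0.05. Near-identical copies were found with blastn 2.17.0. Python 3.11.15, numpy 2.4.6, pandas 2.3.3, scipy 1.17.1 and matplotlib 3.10.9 were used. Alternatives were other read minimums, limits, gene sets, thresholds and a scaling of CAST reads.

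The members and the gene lists were chosen with earlier results of these data known. Genes were named by rule: members not at the WT extreme in XiΔXist, the 6 deepest others per allele, the 2 nearest each limit on either side, up to 6 called per comparison, and members of the lists. Others were named after their values were seen.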

Additional observations from a re-analysis of the deposited data

How the results depend on the processing

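No paired analysis was possible because the authors pooled the replicates into 1 column per allele and group, which for the same reason allowed no fit without a replicate. The number of members was 37. It rose to 60 with limits of 0.2 and 0.8 and was 17 without the long chromosome 11 stretch, the latter added after the data were examined, and it stayed within 1.5 times the main count under the other 8 of 10 alternatives. The percentage at the same extreme in XiΔXist was 86.5%. It was 96.7% over the 30 members whose whole WT interval was inside the limit and 70.6% without the stretch. It was within the interval of the main value under the other 8 of 10, an interval that treats the members as independent. The percentage at the same extreme in every pool with enough reads was 75.7%. It was 56.7% with limits of 0.2 and 0.8, 86.7% with the whole WT interval inside the limit and 47.1% without the stretch. Members called between XiΔXist and shSCR numbered 8, and 4 when a share difference of 0.25 was also asked. Members called between shSCR and shYY1 numbered 0, and 2 by non-overlap of Wilson intervals, beside 4.03% of all autosomal genes. In each of these percentages the set of genes itself differs by construction. Depth limits the hairpin pools, since WT held 12.8 times as many autosomal and X reads as shSCR.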

Other observations

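Among the genes the depth rule left out were some expressed in one line and nearly silent in the other, all named after their values were seen except Efemp1, which is in the matrix list. On the 2 chromosomes 10 genes were past a limit in WT but had under 50 reads in XiΔXist, of which 4 lie in the imprinted Dlk1 domain. Efemp1, a fibulin of the extracellular matrix, had 5503 reads from 129 and 9 from CAST in WT, 10 and 3 in XiΔXist, 171 and 96 in shSCR, and 329 and 192 in shYY1. Its 129 share was 99.8% in WT and 64.0% and 63.2% in the hairpin pools, and its level in WT was 481-fold that in XiΔXist. Its gene starts 269 kb from Ccdc85a, whose level was 16.6-fold higher in XiΔXist. Myocd, a cofactor of smooth muscle transcription, had 3 and 87 reads in WT, 4 and 0 in XiΔXist, and 6 and 0 in each hairpin pool, too few reads for a share outside WT.

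In the other direction, 6 genes were past a limit in XiΔXist with under 50 reads in WT. Clec14a, a C-type lectin of vessel cells, had 2 and 47 reads in WT, 0 and 2358 in XiΔXist, 1 and 27 in shSCR, and 0 and 29 in shYY1, so that the CAST allele was read in all 4 pools while the level in XiΔXist was 42.4-fold that in WT. Plek, a substrate of protein kinase C in blood cells, had 5 and 22 reads in WT, 14 and 676 in XiΔXist and none in the hairpin pools. Clec14a and Plek resembled Ccdc85a, with more reads from CAST in XiΔXist, and Efemp1 had more reads from 129 in WT.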
